A study of Mus musculus with 6 samples.

Results

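The messenger RNAs of 8 genes were followed in the soft palate of mouse embryos with and without the homeobox gene Dlx5, which patterns the lower face. Of these genes, 5 encode secreted neurotrophic factors (Bdnf, Ntf3, Gdnf, Nrtn and Artn) and 3 encode receptors for them on neurons (Ntrk2, Ntrk3 and Ret). They were chosen by name, and all 8 were present among the 49492 gene rows of the deposited table. The study sequenced RNA of the posterior palate at stage E14.5, with a library kit for messenger RNA. There were 3 control libraries, labelled wild type, and 3 libraries labelled Dlx5-/-. The labels name no other allele, no treatment and no pooling of embryos, and do not say whether each library came from a separate embryo. The p-values therefore measure the spread between these libraries, which may be technical in part.

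Neurotrophic factors are made by the tissues that nerves grow into, and they keep the ingrowing neurons alive. The neurotrophins BDNF and NT-3 (encoded by Ntf3) bind the receptor tyrosine kinases TrkB (Ntrk2) and TrkC (Ntrk3). Neurotrophins also bind the low-affinity receptor p75 (Ngfr). The GDNF family (GDNF, neurturin and artemin) binds co-receptors anchored in the membrane (Gfra1, Gfra2 and Gfra3), which then engage the kinase Ret. In the head these receptors mark subsets of sensory neurons of the cranial ganglia, and Ret also marks autonomic neurons. Ntrk2 is in addition transcribed as a truncated form without a kinase domain in cells that are not neurons. The table holds 1 value per gene, so the forms of Ntrk2 could not be separated.

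The receptor genes Ntrk2 and Ntrk3 are related in sequence, as are the ligand genes Bdnf and Ntf3. The coding stretch around the longest identical run of each pair is therefore shown first. Stretches of higher similarity elsewhere were not searched for. The runs bear on whether reads of the paired genes can be told apart, since Ntrk2 and Ntrk3 gave different values. The sequences were cut from GENCODE M21 transcripts on GRCm38 and are written 5′ to 3′ on the coding strand. Capitals mark bases that are the same in both genes of a pair. The receptor stretches lie in 1 coding exon each, at chr13:59054374-59054463 (plus strand) for Ntrk2 and chr7:78250703-78250792 (minus strand) for Ntrk3. The ligand stretches, also in coding exons, lie at chr2:109724069-109724149 (plus strand) for Bdnf and chr6:126101732-126101812 (minus strand) for Ntf3.
Ntrk2: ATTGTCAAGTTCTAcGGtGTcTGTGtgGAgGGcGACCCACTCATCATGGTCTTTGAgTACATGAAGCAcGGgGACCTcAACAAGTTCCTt
Ntrk3: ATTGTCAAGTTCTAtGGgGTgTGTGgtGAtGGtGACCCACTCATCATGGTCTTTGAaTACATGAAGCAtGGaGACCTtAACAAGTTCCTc
Bdnf: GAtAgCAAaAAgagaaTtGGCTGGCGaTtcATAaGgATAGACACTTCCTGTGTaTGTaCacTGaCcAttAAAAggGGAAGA
Ntf3: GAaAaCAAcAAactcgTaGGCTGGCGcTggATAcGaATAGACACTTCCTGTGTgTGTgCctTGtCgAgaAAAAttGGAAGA

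The Ntrk2 and Ntrk3 stretches shared 78 of 90 bases, and those of Bdnf and Ntf3 shared 57 of 81. Over the whole coding sequences, 65.8% of aligned bases were identical between Ntrk2 and Ntrk3, and their longest identical run was 23 bases. For Bdnf and Ntf3 these values were 65.5% and 17 bases. Within the GDNF family the longest identical run was 10 bases for Gdnf and Nrtn, and 9 bases for Artn with either. Exons of Bdnf overlapped those of the antisense gene Gm45346 by 896 bases, but that gene held only 1.8 estimated counts over the 6 libraries. On GRCm38 the ligand genes lie at chr2:109674700-109727007 (Bdnf, plus strand), chr6:126101412-126166910 (Ntf3, minus), chr15:7810846-7837575 (Gdnf, plus), chr17:56751325-56757530 (Nrtn, minus) and chr4:117926162-117929763 (Artn, minus). The receptor genes lie at chr13:58806569-59133970 (Ntrk2, plus), chr7:78175959-78738012 (Ntrk3, minus) and chr6:118151745-118197718 (Ret, minus). All are protein-coding, with 20 annotated transcripts for Ntrk3, 10 for Ntrk2 and 2 for Ret. No exon of another annotated gene overlapped an exon of the other 7 members.

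Libraries held 6891798 to 11922442 estimated counts in the controls and 8741020 to 11492409 in the knockouts. These totals include 6 rows treated as ribosomal RNA. They took 13.0% of counts in knockout replicate 3, 29.0% in knockout replicate 2 and 18.8% to 24.2% in the other libraries. Dlx5 fell from 19.3 ± 5.88 counts per 1000000 counts of the library (CPM) in controls to 1.25 ± 0.402 in knockouts (SD, n = 3 each), a log2 fold change of -3.93 (SE 0.32; adjusted p = 0.0205, edgeR quasi-likelihood), so that the labels held in all 6 libraries. Among 16218 genes tested it alone passed the threshold of 0.05, which is 0.00617% of genes lower and 0% higher. Knockout replicate 3 stood apart: its mean correlation with the other libraries was 0.959, against 0.970 to 0.976 for the rest. It also held transcripts of brain. The summed level of 14 brain genes was 421 CPM there, against 20.9 to 50.3 in the controls and 31.6 and 54.2 in the other knockouts. A list of 9 genes of palate mesenchyme summed to 4724 to 5423 CPM in the controls. In the knockouts it summed to 2823 to 5883 CPM, with the lowest value in knockout replicate 3. Collagen genes made up most of this sum. In controls and knockouts Col1a1 measured 2835 ± 216 and 2024 ± 1096 CPM, and Col1a2 1573 ± 87.5 and 1359 ± 501 CPM.

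Of the 8 members, 0 passed the edgeR test in either direction. The 5 ligand estimates ran from -0.08 to 0.16 on the log2 scale. Of the 3 receptors, Ret and Ntrk3 were lower in every knockout library than in any control library and Ntrk2 was not. Ligands were not tested against receptors. At an unadjusted p under 0.05 (edgeR) there were 2 of 8 members, both lower and both receptors, where 7.23% of all genes were lower and 5.60% higher on that basis. Groups did not overlap for the same 2 members, against 9.71% of all genes lower in the knockout and 9.48% higher. The median log2 fold change was -0.04 over the 5 ligands and -0.82 over the 3 receptors, beside 0.01 over all 16218 genes. With 3 receptors the median is the estimate of Ntrk3 alone. Ret was at -1.35 and Ntrk2 at 0.17, so the median does not describe a shared shift. All 8 members passed the filter on low values.

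**Figure D1:**
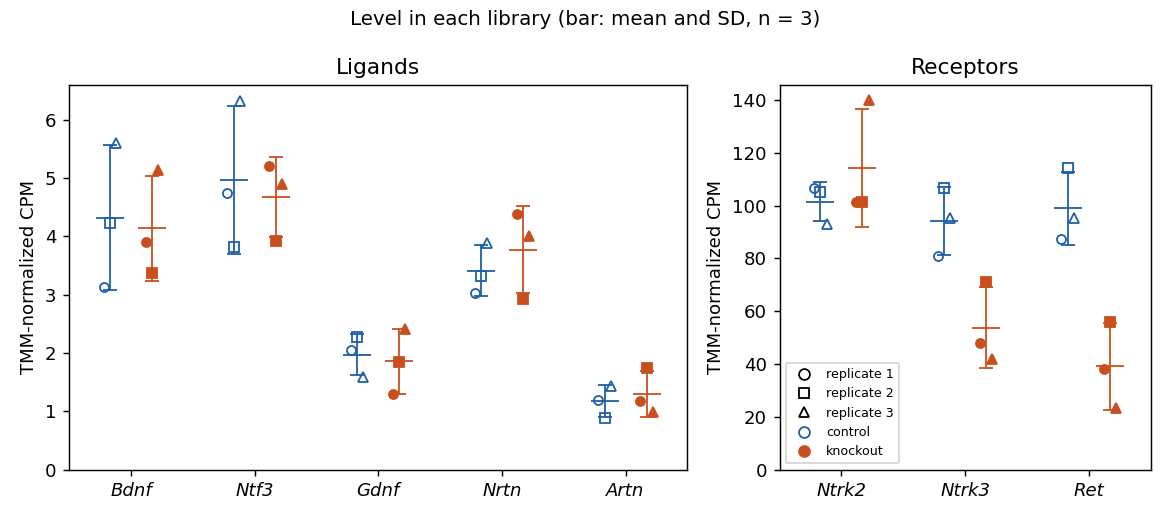
TMM-normalized CPM (vertical axes, linear from 0) of the 5 ligands (left) and 3 receptors (right) in each library; open blue symbols are controls, filled orange symbols knockouts, and bars give the mean and SD of 3 libraries. Control and knockout symbols mix for every ligand and for Ntrk2, while for Ntrk3 and Ret the highest knockout (71.1 and 56.0 CPM) lies below the lowest control (81.1 and 87.3 CPM).

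Ntf3, which encodes the ligand of TrkC, had the highest mean level of the 5 ligands before any correction for length. It lay within the SD of Bdnf (4.96 ± 1.27 against 4.32 ± 1.24 CPM in controls). Bdnf was the higher of these genes in control replicate 2 and knockout replicate 3. Ntf3 measured 4.75, 3.82 and 6.32 CPM in control replicates 1, 2 and 3 and 5.21, 3.91 and 4.90 CPM in the knockouts. The knockout values all lay inside the control range. The log2 fold change was -0.07 (SE 0.27; 95% confidence interval -0.69 to 0.54; adjusted p = 0.950, edgeR). Bdnf, which encodes the ligand of TrkB, measured 3.13, 4.22 and 5.61 CPM in the controls and 3.91, 3.37 and 5.13 CPM in the knockouts. Its knockout values also lay within the span of the controls. The log2 fold change was -0.04 (SE 0.30; -0.74 to 0.65; adjusted p = 0.971, edgeR).

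The groups of the 3 GDNF family ligands overlapped as well. Nrtn, which encodes neurturin, measured 3.02, 3.33 and 3.88 CPM in the controls and 4.38, 2.93 and 4.0 CPM in the knockouts. Its lowest and its highest value were both found in knockouts, with a log2 fold change of 0.15 (SE 0.28; -0.49 to 0.79; adjusted p = 0.880, edgeR). Gdnf, the founding member of the family, measured 2.05, 2.27 and 1.58 CPM in the controls and 1.30, 1.85 and 2.41 CPM in the knockouts. Here too the knockouts spanned the controls on either side, with a log2 fold change of -0.08 (SE 0.38; -0.95 to 0.79; adjusted p = 0.958, edgeR). Artn, which encodes artemin, was closest to the filter of 1 CPM, at 1.19, 0.893 and 1.44 CPM in the controls and 1.18, 1.74 and 0.981 CPM in the knockouts. Its log2 fold change was 0.16 (SE 0.44; -0.85 to 1.17; adjusted p = 0.926, edgeR).

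These ligand values rest on 10 to 68 estimated counts per gene and library, and the receptor values on 308 to 1854. The ligand intervals are correspondingly wide. For Artn the interval ran from a ratio of 0.556 to one of 2.24 between knockout and control, and for Ntf3, the narrowest of the ligands on the log scale, from 0.621 to 1.46. A difference of the size seen for Ret (ratio 0.393) lay outside the interval of each ligand. A difference of the size seen for Ntrk3 (ratio 0.568) lay inside the intervals of Gdnf and Artn and outside those of Bdnf, Ntf3 and Nrtn.

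Ret, the signalling kinase shared by the GDNF family ligands, had the largest estimate of the 8 members. It measured 87.3, 114 and 95.3 CPM in the controls and 38.3, 56.0 and 23.2 CPM in the knockouts. Every knockout lay below every control, and knockout replicate 3 was the lowest. The mean was 99.0 ± 13.8 CPM in the controls and 39.2 ± 16.4 CPM in the knockouts, a ratio of 0.393 (95% confidence interval 0.255 to 0.605) and a log2 fold change of -1.35 (SE 0.27), which did not pass (adjusted p = 0.0806, edgeR). Without knockout replicate 3 the log2 fold change was -1.07 and passed (adjusted p = 0.0338, edgeR; 0.0338 to 0.324 over single libraries left out); in that fit 0.937% of all genes were called lower and 0.0740% higher. DESeq2 called Ret as lower with all libraries (adjusted p = 8.53e-06), in a fit that called 2.36% of genes lower and 0.728% higher. With library totals in place of TMM factors, Ret passed too (adjusted p = 0.0432, edgeR), where 0.253% of genes were called lower and 0% higher. Without the filter on low values it passed (adjusted p = 3.79e-05, edgeR) beside 1.46% of genes lower and 0.817% higher. At a threshold of 0.1, Ret was the 1 member lower with edgeR, beside 1.58% of genes lower and 0.259% higher. In bulk tissue, fewer cells of a type and less RNA per cell cannot be told apart, which holds for each receptor value here.

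Ntrk3, the receptor of NT-3, measured 81.1, 107 and 95.2 CPM in the controls and 48.0, 71.1 and 42.0 CPM in the knockouts. Its groups did not overlap, and knockout replicate 2 was the nearest to the controls, as it was for Ret. The mean was 94.3 ± 12.8 CPM in the controls and 53.7 ± 15.3 CPM in the knockouts, a ratio of 0.568 (95% confidence interval 0.418 to 0.771). The log2 fold change of -0.82 (SE 0.19) did not pass with edgeR (adjusted p = 0.123; 0.0631 to 0.411 over single libraries left out) and passed with DESeq2 (adjusted p = 0.00136).

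Ntrk2, the receptor of BDNF, did not share this pattern. It measured 107, 105 and 93.0 CPM in the controls and 101, 101 and 140 CPM in the knockouts, so 2 knockouts lay within the control range and knockout replicate 3 above it. The log2 fold change was 0.17 (SE 0.14; 95% confidence interval -0.14 to 0.48; adjusted p = 0.659, edgeR). Without knockout replicate 3 it was -0.0079 (adjusted p = 0.985, edgeR). That library was also the one with the high brain gene sum. It had the highest summed level of 10 Schwann and satellite glia genes, at 508 CPM against 269 to 375 in the others. The glia list was not raised as a whole there. Its median log2(CPM + 1), relative to the mean of the controls, was 0.14, against 0.18 in knockout replicate 1. Mbp, a gene of that list, measured 33.6 ± 0.932 CPM in the controls and 79.3 ± 84.9 CPM in the knockouts. The part of brain and glia transcripts in the Ntrk2 value was not tested.

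**Figure D2:**
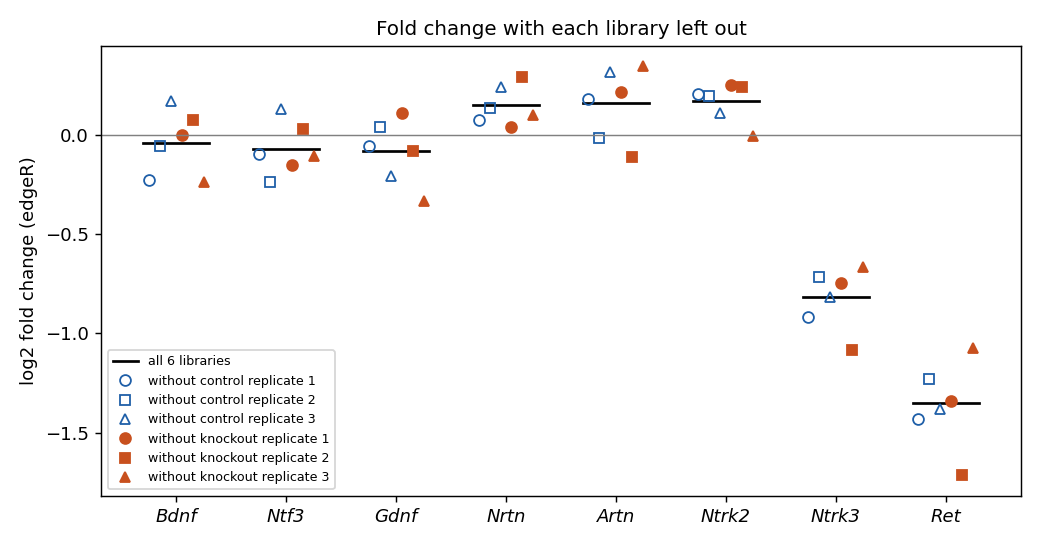
Log2 fold change of each of the 8 members (vertical axis, edgeR) with all 6 libraries (black line) and with each library left out (symbols; open blue for a control left out, filled orange for a knockout). Ntrk3 stays between -1.08 and -0.67 and Ret between -1.71 and -1.07, while Bdnf, Ntf3, Gdnf, Artn and Ntrk2 fall on either side of 0.

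The difference between receptors, a comparison chosen after the data were seen, was examined within libraries, as the difference of their log2(CPM + 1) values, with exact two-sided permutation tests over samples. With 3 libraries against 3 such a test cannot give a p under 0.10. Ntrk3 relative to Ntrk2 was -0.39, 0.02 and 0.03 in controls and -1.06, -0.51 and -1.71 in knockouts, so the groups did not overlap (exact permutation p = 0.10, the smallest possible; 0.15 after adjustment over 6 comparisons). Ret relative to Ntrk2 was -0.28, 0.12 and 0.03 in controls and -1.38, -0.85 and -2.54 in knockouts (exact permutation p = 0.10, adjusted 0.15). Ret relative to Ntrk3 was 0.11, 0.10 and 0.00216 in controls and -0.32, -0.34 and -0.83 in knockouts, again without overlap (exact permutation p = 0.10, adjusted 0.15). In controls the Ret and Ntrk3 values thus lay within 0.11 of each other in every library, and in knockouts Ret was the lower in all 3.

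Further ligands and receptors of both families were set beside the members. Ntf5, which encodes NT-4, another ligand of TrkB, measured 1.21 ± 0.457 CPM in the controls and 1.88 ± 1.01 CPM in the knockouts, with 3.02 CPM in knockout replicate 3 and 1.09 and 1.54 CPM in the other knockouts. Pspn, the ligand persephin, had 10 counts summed over controls and 8 summed over knockouts and was under the filter. Among receptors, Ngfr measured 182, 256 and 195 CPM in the controls and 139, 144 and 94.6 CPM in the knockouts (log2 fold change of -0.75 with an SE of 0.18; edgeR adjusted p = 0.132). Every knockout lay below every control for Ngfr, which did not pass.

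The co-receptors of Ret differed among themselves in their estimates. Gfra3, the co-receptor for artemin, measured 22.1, 28.6 and 18.1 CPM in the controls and 15.5, 15.4 and 7.92 CPM in the knockouts (log2 fold change of -0.85 with an SE of 0.27; edgeR adjusted p = 0.236). Gfra2, the co-receptor for neurturin, measured 40.5, 40.3 and 52.2 CPM in the controls and 38.8, 33.0 and 24.4 CPM in the knockouts (-0.47, SE 0.18; adjusted p = 0.316, edgeR). The groups of these 2 genes did not overlap. Gfra1, the co-receptor for GDNF, measured 36.5, 40.0 and 34.2 CPM in the controls and 42.4, 38.7 and 59.8 CPM in the knockouts (0.35, SE 0.16; adjusted p = 0.420, edgeR), with its highest value in knockout replicate 3. Gfra4, the co-receptor for persephin, had a log2 fold change of 0.14 (SE 0.23; adjusted p = 0.858, edgeR). None of the 4 passed in this fit. Without the filter on low values Gfra3 passed as lower (adjusted p = 0.0238, edgeR). In that fit 1.46% of genes were called lower and 0.817% higher. The differences between the 4 co-receptors were not tested.

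**Figure D3:**
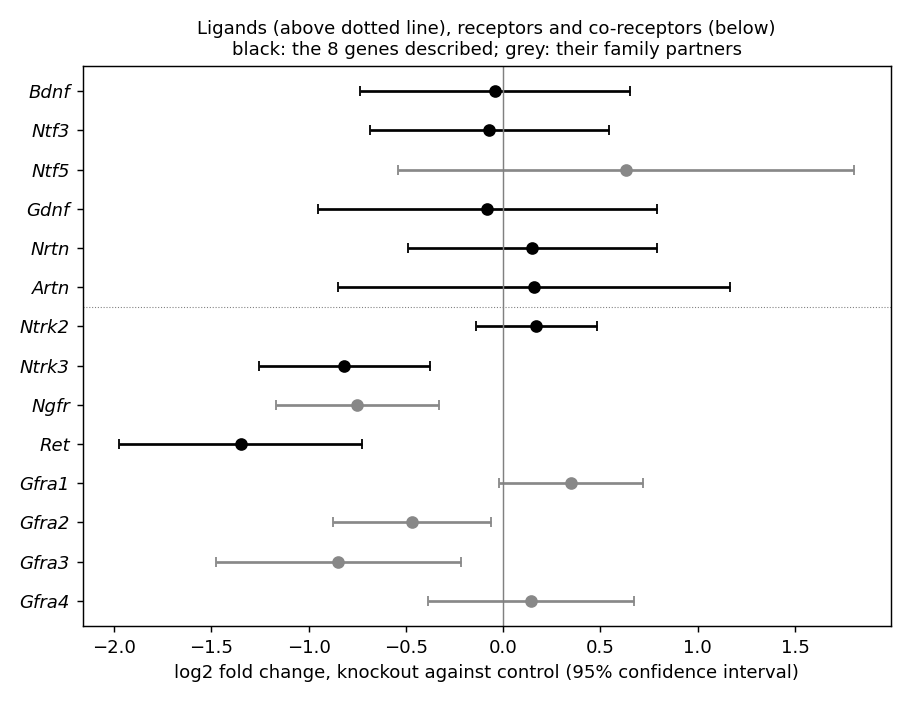
Log2 fold change of knockout against control with its 95% confidence interval (horizontal axis, edgeR) for ligands above the dotted line and for receptors and co-receptors below it; black marks the 8 members and grey their family partners. All 6 ligand intervals include 0; among receptors and co-receptors the intervals of Ntrk3, Ngfr, Ret, Gfra2 and Gfra3 lie below 0 and those of Ntrk2, Gfra1 and Gfra4 include it.

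The partners of both pathways, including receptors, co-receptors, processing enzymes and adaptor proteins, were taken from written lists. Of 23 neurotrophin partners, all were kept and 0 passed the edgeR test. Their estimates were lower for 15 and higher for 8, with a median of -0.08, and 4 were lower at an unadjusted p under 0.05 and 0 higher. Of 18 GDNF family partners, 16 were kept and 0 passed. Of these, 10 estimates were lower and 6 higher, with a median of -0.38, and 7 were lower at an unadjusted p under 0.05 and 0 higher. Over all genes, 7.23% were lower and 5.60% higher at that p (edgeR). Of the 39 kept partners of both lists, groups did not overlap for 12 that were lower and 6 that were higher. Over all genes these shares were 9.71% and 9.48%. Gfral, the receptor for GDF15, had 0 counts in all 6 libraries.

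Among the partners with the smallest p-values in the neurotrophin list were Kidins220 and Shc2. Kidins220, a scaffold protein that Trk kinases phosphorylate, measured 208, 215 and 199 CPM in the controls and 166, 170 and 151 CPM in the knockouts (log2 fold change of -0.35 with an SE of 0.08; edgeR adjusted p = 0.113). Shc2, an adaptor of Trk receptors, measured 47.4 ± 6.58 and 34.0 ± 1.84 CPM (-0.49; adjusted p = 0.121, edgeR). In the GDNF family list they were Ncam1, Dok4 and Gab2. Ncam1, a cell adhesion molecule that also serves as a receptor for GDNF, measured 490, 560 and 488 CPM in the controls and 378, 382 and 336 CPM in the knockouts (-0.49, SE 0.09; adjusted p = 0.0724, edgeR). Dok4, an adaptor that binds activated Ret, measured 71.5, 82.2 and 67.1 CPM in the controls and 36.8, 44.3 and 21.4 CPM in the knockouts (-1.12, SE 0.23; adjusted p = 0.0850, edgeR). Gab2, a docking protein, measured 39.8 ± 3.00 and 30.9 ± 1.97 CPM (-0.36; adjusted p = 0.154, edgeR). Without knockout replicate 3, Dok4 was the partner that passed (log2 fold change -0.86, adjusted p = 0.0307, edgeR). In that fit 0.937% of all genes were called lower and 0.0740% higher. DESeq2 with all libraries called 6 of the 39 kept partners, all lower, among them Ngfr, Kidins220, Shc2, Ncam1 and Dok4. It called 2.36% of all genes lower and 0.728% higher.

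Other neurotrophic ligands and receptors, from a list of 18 genes of the CNTF, HGF, IGF, midkine and MANF families, had no common direction. Of 15 kept genes, 7 estimates were lower and 8 higher, with a median of 0.03, and 0 passed. Lifr, a receptor subunit for leukaemia inhibitory factor and related cytokines, measured 172, 201 and 171 CPM in the controls and 132, 136 and 92.9 CPM in the knockouts (log2 fold change of -0.59 with an SE of 0.15; edgeR adjusted p = 0.134). Mdk, which encodes the secreted factor midkine, measured 320, 293 and 296 CPM in the controls and 434, 359 and 366 CPM in the knockouts (0.35, SE 0.10; adjusted p = 0.162, edgeR). DESeq2 called Lifr as lower (adjusted p = 0.00422) and Mdk as higher (adjusted p = 0.0219).

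Estimates for neuron markers were lower alongside those of Ret and Ntrk3. Of 14 pan-neuronal genes, 13 estimates were lower and 1 higher, with a median log2 fold change of -0.75, and 0 passed. At an unadjusted p under 0.05, 11 were lower (edgeR), where 7.23% of all genes were lower. Without knockout replicate 3, 8 of the 14 passed, all lower, and 1 of the sensory neuron genes passed, also lower (edgeR). In that fit 0.937% of all genes were called lower. The summed level of the 14 pan-neuronal genes was 4223 to 5339 CPM in the controls and 2214 to 2911 CPM in the knockouts, and no gene of the list was at 0. Among the most abundant were the neurofilament genes Nefm and Nefl and the peripherin gene Prph, at 529 ± 53.0 CPM in the controls and 218 ± 102 CPM in the knockouts. Of 13 sensory neuron genes, 12 were analysed here, all 12 with lower estimates (median -0.94; -0.74 without knockout replicate 3), and 0 passed. They summed to 639 to 749 CPM in the controls and 253 to 427 CPM in the knockouts, led by the mechanosensitive channel gene Piezo2 and the transcription factor genes Runx1 and Isl1. The receptors are set against the pan-neuronal genes within each library further below. What part of the receptor values goes with these neuron markers was not tested.

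The 12 autonomic and motor neuron genes summed to 59.6 to 61.7 CPM in the controls and 49.2 to 81.2 CPM in the knockouts, and of 10 kept genes 6 estimates were lower and 4 higher, with 0 passing. Their median log2 fold change was -0.33, and -0.51 without knockout replicate 3. Th, which encodes the first enzyme of catecholamine synthesis, measured 23.8 ± 5.20 and 11.4 ± 5.21 CPM, and Gata3 7.39 ± 8.38 and 31.1 ± 11.4 CPM. The 10 Schwann and satellite glia genes had a median of 0.29, and -0.13 without knockout replicate 3; Fabp7 measured 92.8 ± 19.5 and 73.1 ± 23.9 CPM and Erbb3, the neuregulin receptor of Schwann cells, 46.7 ± 8.67 and 58.1 ± 4.98 CPM. Among tissues that nerves grow into, the 12 skeletal muscle genes summed to 1103 to 1915 CPM in the controls and 1300 to 3576 CPM in the knockouts. All 12 had higher estimates, with a median log2 fold change of 1.01 (0.98 without knockout replicate 3). Of these, 9 were higher at an unadjusted p under 0.05, the groups of 4 did not overlap, and 0 passed (edgeR). Over all genes, 5.60% were higher at that p, and 9.48% were higher without overlap of the groups. Myl1, a myosin light chain gene named here after its values were seen, measured 46.5 ± 6.48 and 99.7 ± 31.0 CPM (log2 fold change 1.09; adjusted p = 0.0746, edgeR). The part of muscle transcripts in the receptor values was not tested. The 10 oral epithelium genes summed to 252 to 396 and 209 to 222 CPM, with a median of -0.23 (-0.38 without knockout replicate 3). The 5 endothelium genes summed to 329 to 384 and 263 to 313 CPM, and the 6 smooth muscle and pericyte genes to 280 to 312 and 293 to 429 CPM. The summed level of the 5 ligands was 14.1 to 18.8 CPM in the controls and 13.8 to 17.4 CPM in the knockouts.

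**Figure D4:**
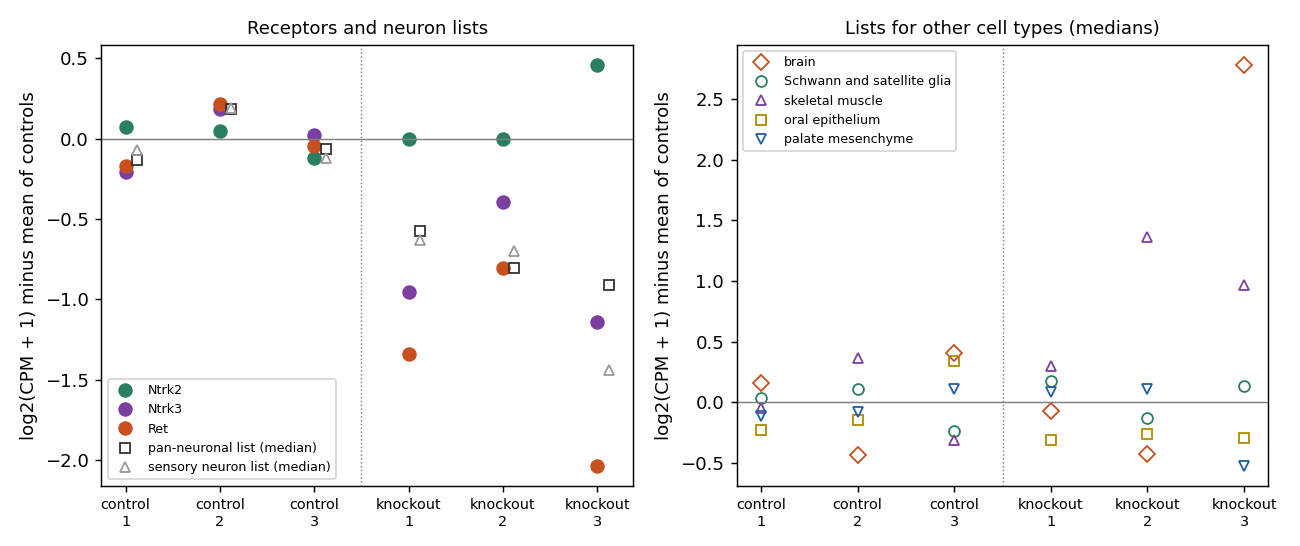
Receptors with the medians of the neuron lists (left) and medians of lists for other cell types (right) in each library, as log2(CPM + 1) minus the mean of the controls (vertical axes, which differ in range). Ret, Ntrk3 and the neuron lists lie below 0 in all 3 knockouts, and Ntrk2 does not. The skeletal muscle list lies above 0 in all 3 knockouts and also in control replicate 2 (0.36, against 0.30 in knockout replicate 1). The brain list is high in knockout replicate 3 alone.

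Set against the neuron markers within each library, again in tests chosen after the data were seen, the 3 receptors differed in their values. Ntrk3 relative to the mean of the 14 pan-neuronal genes, on the log2(CPM + 1) scale, was -1.22, -1.16 and -1.05 in controls and -1.48, -0.75 and -1.56 in knockouts, on either side of the controls (exact permutation p = 0.70; adjusted 0.70). For Ret it was -1.11, -1.06 and -1.05 in controls and -1.80, -1.09 and -2.39 in knockouts. Of these, knockout replicates 1 and 3 lay below the controls and knockout replicate 2 within their range (exact permutation p = 0.20; adjusted 0.24). For Ntrk2 it was -0.82, -1.18 and -1.09 in controls and -0.42, -0.24 and 0.15 in knockouts, so every knockout lay above every control (exact permutation p = 0.10, the smallest possible; adjusted 0.15). The difference between group means was -0.12 for Ntrk3, -0.69 for Ret and 0.86 for Ntrk2. Without knockout replicate 3 it was 0.026 for Ntrk3, -0.37 for Ret and 0.70 for Ntrk2, and with other single libraries left out the Ntrk3 value ran from -0.38 (without knockout replicate 2) to -0.012 (without knockout replicate 1). Some genes of the pan-neuronal list were high in knockout replicate 3, the library with the high brain gene sum: Snap25, a synaptic vesicle fusion gene, measured 156 CPM there against 37.9 and 26.0 CPM in the other knockouts, and Syt1, a calcium sensor of synaptic vesicles, 122 CPM against 40.3 and 40.2. Their part in these differences was not tested.

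Levels were compared between genes per kilobase of the longest annotated coding sequence. In controls Ntrk2 measured 41.2 ± 3.01, Ntrk3 36.3 ± 4.94 and Ret 29.6 ± 4.14 CPM per kilobase, followed by Ntf3 (6.08 ± 1.55), Nrtn (5.80 ± 0.740), Bdnf (4.96 ± 1.43), Gdnf (2.72 ± 0.489) and Artn (1.74 ± 0.404). Neighbours in this order lay within their summed SDs except Ret against Ntf3, Bdnf against Gdnf, and Gdnf against Artn. In knockouts the order of the receptors was Ntrk2 (46.3 ± 9.03), Ntrk3 (20.7 ± 5.91) and Ret (11.7 ± 4.89), and the ligands ranged from 1.93 ± 0.581 for Artn to 6.41 ± 1.28 for Nrtn. The order depended on the length used. Per kilobase of all annotated exons, which run to 30.17 kilobases for Ntrk3 and 1.02 for Nrtn, control levels were 14.6 ± 2.05 for Ret, 5.26 ± 0.385 for Ntrk2, 3.33 ± 0.425 for Nrtn, 3.13 ± 0.425 for Ntrk3 and 2.90 ± 0.740 for Ntf3.

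Genes with the most similar profile over the 6 libraries were named for the 3 members with a mean of at least 5 CPM, by the root mean square difference of log2(CPM + 1) values after each gene was centred. Of 11580 candidates, Nefh, which encodes the heavy neurofilament protein of large axons, lay nearest to Ret at 0.06, followed by Cemip at 0.14 and the sodium channel gene Scn7a at 0.16. Nefh measured 47.2 CPM in the controls and 19.3 CPM in the knockouts on average. The axonal potassium channel gene Kcna1 lay nearest to Ntrk3 at 0.07, followed by the pseudogene Ppp1r2-ps4 at 0.07 and Stac at 0.09. Nearest to Ntrk2 were Klc4, a kinesin light chain gene, Pnisr and Crtc1, at 0.03 to 0.04. These distances describe 6 libraries that fall into 2 groups, and carry no test.

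Promoter windows from RefSeq (GRCm38.p6, from 250 bases before the transcript start to 50 after it) were searched for TAATTA, the core that homeodomain proteins of the Dlx class bind, which reads the same on both strands. Of the 8 members, 6 had windows in the table: Bdnf, Ntf3, Gdnf, Nrtn, Artn and Ntrk2. None of their 14 windows held the motif, against 5.29% of 32851 windows over all genes. Of the 14 windows, 7 belonged to Bdnf. At so low a share, 14 windows are too few to show whether the members differ from other genes. Ntrk3 and Ret were not searched.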

How the data were processed

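The authors deposited 1 table of estimated counts per gene (expected counts), with reads processed with STAR 2.4.1d and Partek on mm10, per the submitters' processing notes. The annotation, the counting settings and any use of strand are, in the sources used here, not given. The file is called normalized, yet column totals differ, and 64.5% of values above 0.5 are whole within 0.001. There was 1 further column whose name fits no sample label; it entered no step.

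Counts were rounded. Genes with a mean of at least 1 CPM over the 6 libraries were kept (16218 of 49492), with CPM from library totals; TMM-scaled CPM was used for this filter at first, and the choice was changed after results under both had been seen. Knockout was compared with control in R 4.3.3 with edgeR 4.0.16 (quasi-likelihood test, TMM factors, no block) and Benjamini-Hochberg adjustment at 0.05 over all kept genes. Levels are TMM-normalized CPM. SEs were derived from the F statistic. The edgeR test was tried on simulated counts. These held no library that stood apart as knockout replicate 3 does, so they do not show how the test performs on these libraries. Alternatives used limma 3.58.1 (trend and voom), DESeq2 1.42.0, other normalizations, filters and thresholds, a replicate block and each library left out. Depth was 6891798 to 11922442 estimated counts per library. No library was a duplicate of another: replicate pairs differed by more than sampling noise.

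Coordinates and coding sequences came from GENCODE M21 (GRCm38, also called mm10), aligned with biopython 1.88. Figures used matplotlib 3.10.9. Named genes are the members, Dlx5, the remaining ligands, receptors and co-receptors, the 3 smallest p-values of each partner list, the 3 most abundant genes of cell type lists, and the 3 nearest profiles; some results under this rule are not reported here. Members and lists were chosen with earlier results of these data known, so their counts are no independent support. The within-library receptor comparisons and the alignment of coding sequences, used in place of proteins, were also chosen after the data were seen. Drgx, a written sensory marker, was not analysed here.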

Additional observations from a re-analysis of the deposited data

How the results depend on the processing

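Ntrk3 and Ret kept negative estimates under all 19 alternatives run for each. The receptor median, which was the Ntrk3 estimate in each of them, ran from -1.08 to -0.67. Ret passed with DESeq2, without the filter (adjusted p = 3.79e-05, edgeR), with library totals in place of TMM (0.0432) and without knockout replicate 3 (0.0338); Ntrk3 passed with DESeq2 and without the filter (0.000676, edgeR). So 2 members were lower with DESeq2 and without the filter, and 1 with library totals, at a threshold of 0.1 and in a range of 0 to 1 with single libraries left out; 0 were higher under any alternative. Partners called lower numbered 6 with DESeq2 and without the filter, 1 with library totals, 3 at a threshold of 0.1, and 0 to 1 with single libraries left out. Over all genes the share called lower was 2.36% with DESeq2, 1.46% without the filter, 0.253% with library totals and 1.58% at a threshold of 0.1.

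The estimates of Bdnf, Ntf3, Gdnf, Artn and Ntrk2 each changed sign under some alternative, without passing in any fit; that of Nrtn stayed between 0.037 and 0.29. Bdnf was 0.033 with limma-voom, 0.17 without control replicate 3 and 0.08 without knockout replicate 2. Ntf3 was 0.00796, 0.13 and 0.03 under the same settings. With limma-voom after a filter on TMM-scaled CPM, an alternative added after the data were seen, Bdnf was 0.033 and Ntf3 0.0080; edgeR after that filter called the same number of members (0) and of genes (1), with adjusted p-values of 0.0802 for Ret and 0.122 for Ntrk3. Gdnf was 0.04 without control replicate 2 and 0.11 without knockout replicate 1. Artn was -0.02 without control replicate 2 and -0.11 without knockout replicate 2. Ntrk2 was -0.0079 without knockout replicate 3. With single libraries left out, the lowest and highest values were -0.24 and 0.17 for Bdnf, -0.24 and 0.13 for Ntf3, -0.33 and 0.11 for Gdnf, -0.11 and 0.34 for Artn, and -0.0079 and 0.25 for Ntrk2. The ligand median ran from -0.11 to 0.17 with single libraries left out. The filter of 5 CPM removed all 5 ligands.

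Whole-table calls were 88 lower and 9 higher with limma-trend at a pseudocount of 1, 87 and 9 at 0.5, 85 and 9 at 2, 0 and 0 with limma-voom (60 and 4 with limma-voom after the filter on TMM-scaled CPM), 383 and 118 with DESeq2, 41 and 0 with library totals, 435 and 244 without the filter, 68 and 6 with the filter of 5 CPM, and 257 and 42 at a threshold of 0.1. With single libraries left out they ran from 0 to 152 lower (0 in 3 of these fits, those lacking knockout 1, knockout 2 or control 3; 152 without knockout replicate 3) and from 0 to 12 higher. Dlx5 was -3.88 with limma-voom (adjusted p = 0.0501) and -4.15 to -3.65 with single libraries left out (edgeR adjusted p 0.0132 to 0.107). The cause of these shifts was not tested.

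Same-numbered libraries showed no shared deviation: their deviations correlated at -0.01, -0.01 and 0.02, and those of other combinations at -0.05 to 0.06. With 3 libraries per group such values cannot show whether the libraries were paired in the experiment. With the replicate block Dlx5 was -3.88 (adjusted p = 0.0620, edgeR) and 0 genes passed; Ret had an adjusted p of 0.0649 and Ntrk3 of 0.0819. Depth limits the ligands, with 10 to 68 counts per library. Ntrk3 relative to the pan-neuronal genes, left out library by library in an alternative added after the data were seen, ran from -0.38 to 0.026, the latter without knockout replicate 3.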
